A study of Caenorhabditis elegans with 16 samples.

Results

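The 8 libraries described here are the ATAC-seq libraries of Caenorhabditis elegans carrying a degron on RPOA-2 or on GRWD-1 in which neither protein was depleted. They were chosen by the genotype in the sample labels, as the libraries without TIR1, and they are 8 of the 16 libraries of the series. The RPOA-2 strain carries a degron-GFP cassette at the N-terminus of rpoa-2, and the GRWD-1 strain, named rrb-1::degron in the labels, carries the cassette at the C-terminus of grwd-1. Each strain has 4 libraries. Both strains received the same treatment. Embryos from a bleach hatched and developed on plates with 1 mM auxin for 18 h at 23 °C, and whole larvae were collected at the L1 stage. The remaining 8 libraries come from the same degron strains with eft-3p::TIR1, RPOA-2 TIR1 and GRWD-1 TIR1, which were grown on 1 mM auxin for 24 h because they develop more slowly, and they are used here as a second set of samples of the strain comparison and in the model, where they share the factors of unwanted variation and the estimate of spread. No library without a degron, and no library without auxin, is among the 16. The larvae of each strain were grown together and then split into 4 replicates, so the spread between replicates covers nuclei isolation, tagmentation and sequencing, but not separate cultures, and every p-value below measures that spread. The study processed 1 replicate of every strain together in each of 4 batches, but the labels do not say which replicate was in which batch, so the comparisons are unpaired.

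In auxin-inducible degradation, a protein tagged with the degron is handed to the proteasome only when the plant F-box protein TIR1 and auxin are both present, so that auxin alone leaves the tagged protein in place. RPOA-2 is one of the large core subunits of RNA polymerase I, the enzyme that transcribes the precursor of the large ribosomal RNAs in the nucleolus, and GRWD-1 is a WD-repeat protein whose yeast homologue Rrb1 is a chaperone for a protein of the large ribosomal subunit. ATAC-seq inserts sequencing adapters with the Tn5 transposase into DNA that is not wrapped on nucleosomes, so a peak of reads marks an accessible stretch. In worms such peaks are typical of promoters, enhancers and the genes of small non-coding RNAs.

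Reads were counted in 29131 peaks merged over all 16 libraries, so that a region accessible only in depleted larvae is also in the set. Totals of counted reads were 2621847 to 6636849 in the RPOA-2 libraries, with a median of 51 to 130 reads per peak, and 3093702 to 9564582 in the GRWD-1 libraries, with a median of 60 to 174 reads per peak. Levels are given as CPM, the reads of a peak per 1000000 counted reads after TMM scaling, or per kb of peak length (CPM per kb) where peaks of different length are compared. RPOA-2 replicate 1 stood apart from the other libraries. The 10% of peaks with the highest CPM per kb held 29.4% of its reads, against 34.2 to 34.9% in RPOA-2 replicates 2 to 4 and 34.0 to 37.8% in the GRWD-1 libraries, of which replicate 2 was the highest. The main strain comparisons are given with and without these 2 libraries, whereas the levels of the landscape are given over all 8 libraries only. As the larvae were taken whole, fewer cells of a type and lower accessibility per cell cannot be told apart.

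The first comparison asked whether the strains differed before any depletion. A single peak passed the unpaired test. On the right side of chromosome V (V:18153694-18154089 in WBcel235, 396 bp), RPOA-2 larvae had 22.6, 21.9, 21.8 and 23.6 CPM, against 9.81, 9.51, 12.7 and 12.99 CPM in GRWD-1 larvae. The 4 RPOA-2 libraries were close to each other, and all of them were above every GRWD-1 library. The log2 fold change of RPOA-2 over GRWD-1 was 0.91 (95% interval 0.59 to 1.22, adjusted p = 0.0039 in edgeR's quasi-likelihood test, after Benjamini-Hochberg adjustment over 29131 peaks), which is 1.87-fold (1.51 to 2.33). Fold changes are from a fit with 2 factors of unwanted variation, so they can depart from the ratio of the printed means. The peak lies in an exon of the annotated pseudogene WBGene00206536, and the nearest 5′ end of a protein-coding gene is that of clec-48, a gene of the C-type lectin family. At 42.6 CPM per kb it was below the median of all peaks (52.6 CPM per kb), and it rests on 40 to 147 reads per library.

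The share of peaks called between the undepleted strains, at an adjusted p below 0.05, was 0.00343% (1 of 29131 peaks, higher in RPOA-2), and 0 peaks were called lower in RPOA-2. DESeq2 with the same factors called the same peak and 0 lower peaks, with 912 peaks at an unadjusted p below 0.05. At an unadjusted p below 0.05 edgeR counted 1183 peaks, 4.06% of those tested. The call was lost without RPOA-2 replicate 2 (adjusted p = 0.066), without RPOA-2 replicate 4 (0.12), without GRWD-1 replicate 1 (0.37) and without RPOA-2 TIR1 replicate 2 (0.30), each in edgeR's quasi-likelihood test, while its log2 fold change was 0.79 to 0.96 over all 16 single omissions. The peak was still called by edgeR without RPOA-2 replicate 1 (adjusted p = 0.0093) and without GRWD-1 replicate 2 (0.019), but not without both (log2 fold change 0.92, edgeR adjusted p = 0.34). These counts depend on the unpaired fit. With the replicate number as a block in place of the factors, edgeR called 2 peaks higher and 12 lower over 16 libraries. Over the 8 undepleted libraries it called 2 higher and 24 lower. Whether the number is the batch is not settled. The chromosome V peak was called higher in both of these fits.

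The TIR1 libraries, which are other samples but share the factors and the estimate of spread, were read at the same peak. RPOA-2 TIR1 larvae had 27.3, 21.7, 16.3 and 27.7 CPM and GRWD-1 TIR1 larvae 25.5, 19.1, 19.9 and 28.0 CPM, a log2 fold change of 0.00 (95% interval -0.26 to 0.27). The GRWD-1 libraries without TIR1 were thus lower than those of all 3 other genotypes. The change in the strain difference between TIR1 and undepleted larvae was -0.90 on the log2 scale (95% interval -1.30 to -0.51), with an adjusted p of 0.097 in edgeR's quasi-likelihood test, so it did not pass the threshold. Hours of growth also differ between the undepleted and the TIR1 libraries. Hours, TIR1 and the depletion of a different protein in each strain cannot be told apart in this difference.

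**Figure D1:**
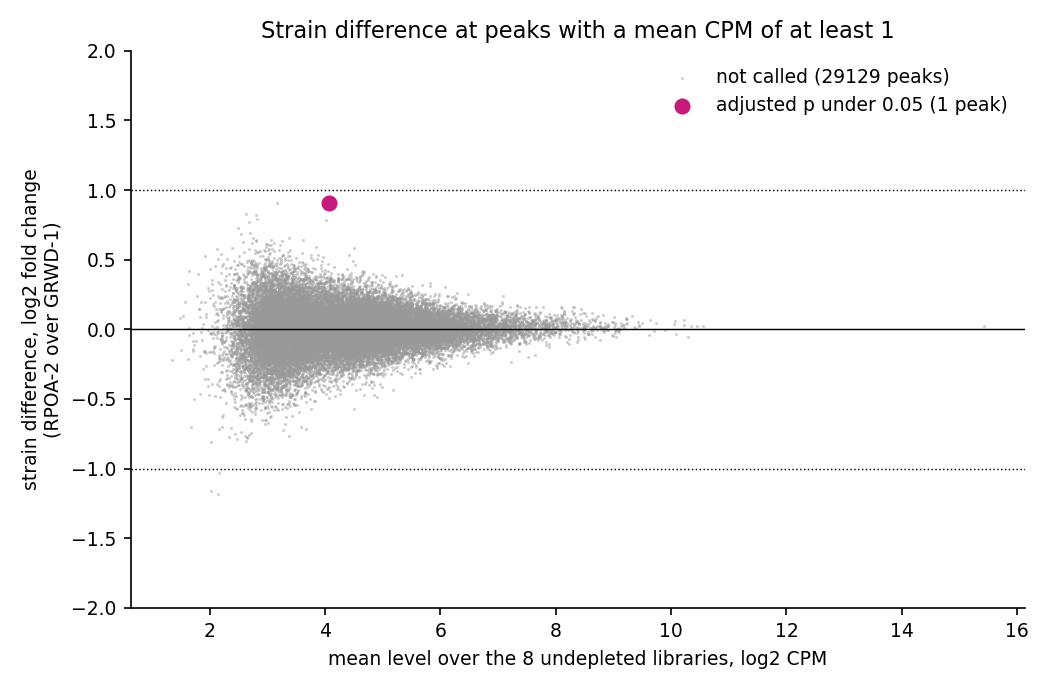
Log2 fold change of RPOA-2 over GRWD-1 (vertical axis) against the mean level in log2 CPM (horizontal axis) for the 29130 peaks with a mean of at least 1 CPM. The called peak on chromosome V stands at 0.91, dotted lines mark a 2-fold difference, and the spread narrows as the level rises.

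The next peaks by p-value in this unpaired fit were named after their values had been seen. The closest to the threshold lies between genes on chromosome X (X:17125593-17125956, 364 bp), where RPOA-2 larvae had 22.9, 20.5, 17.8 and 20.9 CPM, against 12.02, 9.95, 12.02 and 14.0 CPM in GRWD-1 larvae. All 4 RPOA-2 libraries were above all 4 GRWD-1 libraries, with a log2 fold change of 0.78 (95% interval 0.46 to 1.11) and an adjusted p of 0.089 by edgeR's quasi-likelihood test. Among the unpaired fits it passed with 3 factors of unwanted variation (adjusted p = 0.043) and without GRWD-1 replicate 4 (0.048), again by edgeR. A short peak in K08B5.2 (X:16552075-16552272) had 9.07 to 13.75 CPM in RPOA-2 larvae, against 5.64 to 7.46 CPM in GRWD-1 larvae (adjusted p = 0.24, edgeR). In the opposite direction, a peak in mec-4, which encodes a subunit of the touch receptor channel (X:16803540-16803740), had 6.12 to 9.22 CPM in RPOA-2 larvae, against 11.7 to 15.25 CPM in GRWD-1 larvae. A peak in ptr-3, a gene of the patched-related family (II:363793-364035), had 9.22 to 11.7 CPM in RPOA-2 larvae, against 12.9 to 19.5 CPM in GRWD-1 larvae. The peak at the 5′ end of tra-4, a zinc finger gene of the sex determination pathway (X:2857354-2857548), had 2.39 to 3.42 CPM in RPOA-2 larvae, against 4.55 to 8.92 CPM in GRWD-1 larvae, on 9 to 54 reads per library. The mec-4, ptr-3 and tra-4 peaks all had an adjusted p of 0.54 by edgeR's quasi-likelihood test in this fit.

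Across all tested peaks the estimated strain differences were small. TMM scaling places the bulk of peaks near 0, so a median near 0 does not show that the strains are alike. The 2 factors can also take up differences between the strains, since their control peaks were not chosen on this comparison. The median log2 fold change of RPOA-2 over GRWD-1 was 0.01, and 95% of peaks had values between -0.33 and 0.32. A difference beyond 1.5-fold in either direction was estimated at 75 peaks and beyond 2-fold at 4 peaks, of which 1, at kvs-3, was nearly empty. The precision is read from the intervals. The 95% interval lay wholly within a 2-fold difference at 28989 peaks (99.5%) and within a 1.5-fold difference at 24405 peaks (83.8%). The median half-width of the interval was 0.29 on the log2 scale. The RPOA-2 libraries were all above the GRWD-1 libraries at 527 peaks (1.81%) and all below them at 359 peaks (1.23%), together 3.04% of peaks. No chromosome and no region class had a median log2 fold change further from 0 than 0.02.

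The strain difference of the undepleted larvae was compared with that of the TIR1 larvae over the same peaks. Between the TIR1 strains the depleted protein differs as well. The sign was shared by 15279 of 29131 peaks (52.4%), and by 688 of the 1183 peaks with an unadjusted p below 0.05 between the undepleted strains (58.2%). Across the 29131 peaks, which are not independent replicates, and within the same fit, Pearson's r between the 2 sets of log2 fold changes was 0.04 and Spearman's rho was 0.07. Between RPOA-2 TIR1 and GRWD-1 TIR1 larvae 38 peaks were called by edgeR (0.13% of those tested), 29 higher (0.0996%) and 9 lower (0.0309%) in RPOA-2 TIR1, and 7.07% of peaks had an unadjusted p below 0.05. These counts depended on single libraries, with 0 higher and 3 lower peaks without RPOA-2 TIR1 replicate 2 and 108 higher and 15 lower without RPOA-2 TIR1 replicate 1, and with 0 higher and 2 lower when no factor or 1 factor of unwanted variation was fitted. The 2 strain differences themselves differed at 3 peaks (0.0103%, and 5.78% at an unadjusted p below 0.05).

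Those 3 peaks were examined in the undepleted libraries, after their values had been seen. One lies over the large ribosomal RNA genes and is described with them. Another, close to it, I:15060874-15061359 over the non-coding RNA gene F31C3.16 and the pseudogene WBGene00004677, had 11.5, 22.7, 11.2 and 18.6 CPM in RPOA-2 larvae, against 25.8, 44.4, 19.85 and 27.6 CPM in GRWD-1 larvae. RPOA-2 replicate 2 lay above GRWD-1 replicate 3, and the log2 fold change was -0.58 (95% interval -0.87 to -0.28, adjusted p = 0.54 by edgeR's quasi-likelihood test without a replicate block). In the TIR1 libraries the same peak had 7.62 to 16.3 CPM in RPOA-2 TIR1 larvae and 33.2 to 46.8 CPM in GRWD-1 TIR1 larvae, a log2 fold change of -1.61. The third, V:9317893-9318644 at the 5′ end of kvs-3, a gene of the voltage-gated potassium channel family, was nearly empty. It held 0, 4, 2 and 0 reads in the RPOA-2 libraries and 2, 0, 0 and 0 reads in the GRWD-1 libraries, so no fold change is given. The RPOA-2 TIR1 libraries held 0, 0, 2 and 0 reads, whereas the GRWD-1 TIR1 libraries had 66.1 to 91.5 CPM. Its level in the undepleted larvae was 0.23 CPM per kb, and it is in the set because peaks were merged over all 16 libraries.

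The tagged loci were examined next. The only peak that overlaps rpoa-2 lies at its 5′ end (I:9286524-9286681, 158 bp, 5′ UTR and exon), close to where the cassette was inserted. It had 4.30, 5.59, 5.59 and 7.23 CPM in RPOA-2 larvae and 5.39, 9.28, 5.64 and 7.47 CPM in GRWD-1 larvae. The values of the strains overlapped, and the log2 fold change was -0.18 (95% interval -0.66 to 0.31). At 39.9 CPM per kb this was close to the 5th percentile of all peaks (38.3 CPM per kb). The only peak that overlaps grwd-1 is an exonic one 844 bp downstream of its 5′ end (III:5154270-5154505). It had 13.5, 15.4, 13.03 and 13.7 CPM in RPOA-2 larvae, against 17.4, 8.73, 15.1 and 12.02 CPM in GRWD-1 larvae, a log2 fold change of -0.03 (95% interval -0.39 to 0.32). The RPOA-2 values lay inside the range of the GRWD-1 values. Both intervals span a range on either side of 0, so a modest difference at either locus was not detectable at this depth (19 to 84 reads per library at rpoa-2 and 36 to 126 at grwd-1).

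The peak over eef-1A.1, the elongation factor gene whose eft-3 promoter drives TIR1 in the depleted strains (III:6969946-6972381), had 163 to 193 CPM in RPOA-2 larvae and 161 to 184 CPM in GRWD-1 larvae, a log2 fold change of 0.10 (95% interval -0.05 to 0.25). Neither undepleted strain carries that transgene. The RPOA-2 TIR1 libraries had 201 to 234.6 CPM and the GRWD-1 TIR1 libraries 179 to 233 CPM at the same peak.

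The ribosomal RNA genes gave the highest level of the whole set. The peak over rrn-1.1, rrn-2.1 and rrn-3.1 near the end of chromosome I (I:15063578-15068104, 4527 bp), the genes of the 18S, 5.8S and 26S ribosomal RNAs that RNA polymerase I transcribes, reached 9715 CPM per kb, 185 times the median peak. The genome assembly holds few copies of an array that is repeated many times, so the level is not per gene copy. The peak held 3.87, 4.39, 4.51 and 4.42% of the counted reads in RPOA-2 larvae, against 4.78, 4.66, 3.81 and 4.77% in GRWD-1 larvae. In CPM this was 36563, 43994, 44677 and 44071 in RPOA-2 larvae, against 47653, 49314, 37607 and 47960 in GRWD-1 larvae. RPOA-2 replicate 1 and GRWD-1 replicate 3 were the low libraries of their strains, and the strains overlapped. The log2 fold change was 0.02 with a 95% interval of -0.09 to 0.14, that is 0.937-fold to 1.099-fold. It was -0.11 when no factor of unwanted variation was fitted, 0.04 without RPOA-2 replicate 1 and -0.01 without GRWD-1 replicate 2. In the TIR1 libraries the same contrast was -0.44 (25462 to 37109 CPM in RPOA-2 TIR1 larvae, 36351 to 53214 CPM in GRWD-1 TIR1 larvae), and the 2 strain differences differed by -0.47 (adjusted p = 0.00069, edgeR's quasi-likelihood test). The larger difference at these genes thus lay among the TIR1 libraries, in which the depleted protein differs as well as the strain. A second peak over the end of rrn-3.1 (I:15068200-15068595) had 86.7 to 132 CPM in RPOA-2 larvae and 93.95 to 181 CPM in GRWD-1 larvae (log2 fold change -0.15, 95% interval -0.34 to 0.04). The 5S rRNA gene rrn-4.15 on chromosome V, of a family transcribed by RNA polymerase III, had 130 to 170 CPM in RPOA-2 larvae and 131 to 150 CPM in GRWD-1 larvae (log2 fold change -0.01, 95% interval -0.17 to 0.14).

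**Figure D2:**
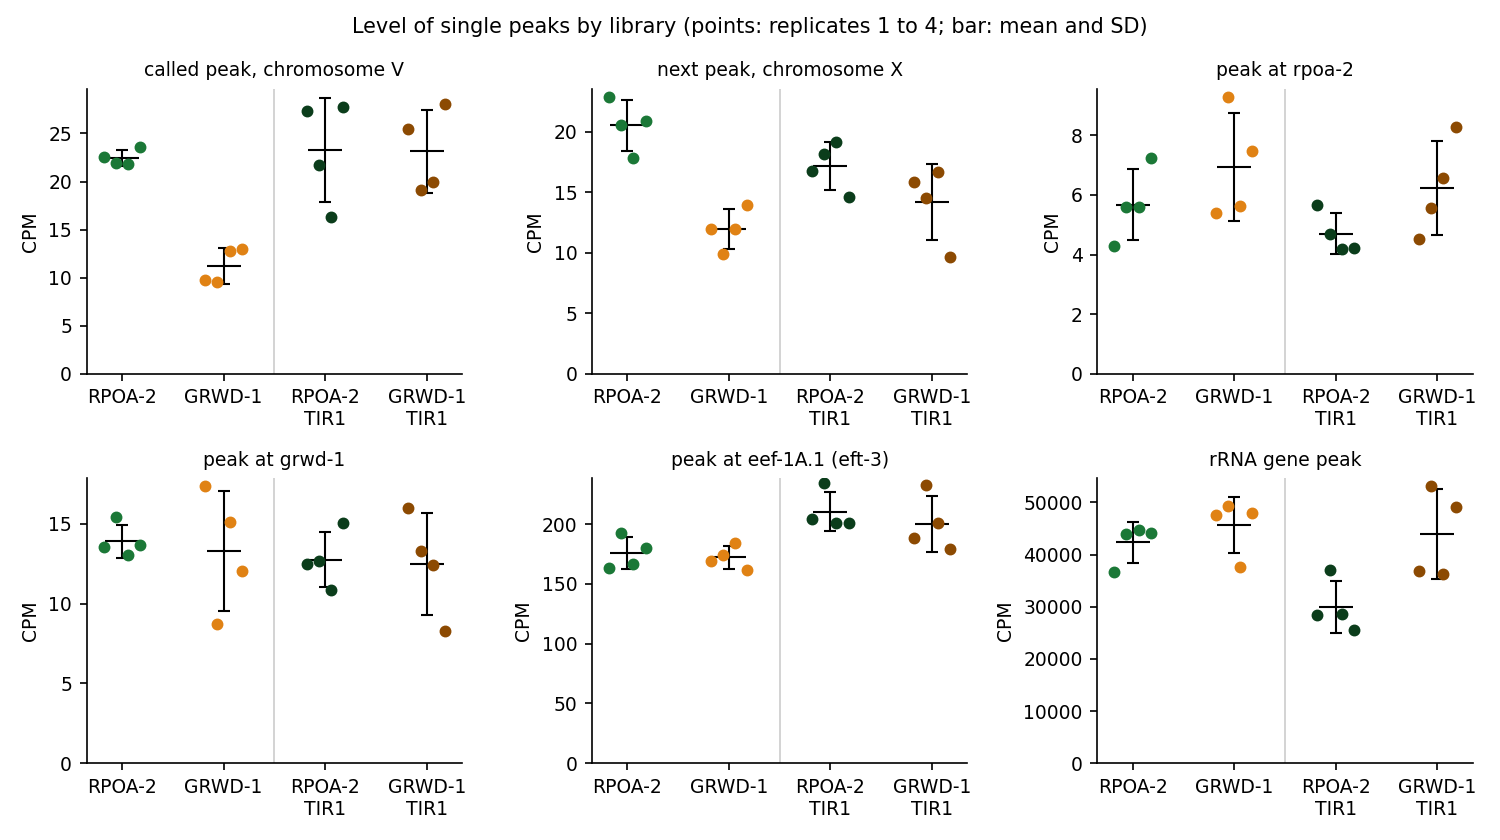
CPM (vertical axes, from 0) of 6 peaks in every library, with RPOA-2 left of GRWD-1 and RPOA-2 TIR1 left of GRWD-1 TIR1. Points are libraries and bars the mean and SD of 4. Undepleted strains are apart at the chromosome V and chromosome X peaks and overlap at rpoa-2, grwd-1, eef-1A.1 and the rRNA genes.

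The libraries were then compared by principal components. On the first principal component of the 500 most variable peaks (58.4% of the variance), RPOA-2 libraries scored 1.66 ± 6.37 and GRWD-1 libraries -1.66 ± 4.00 (SD, n = 4 each). The strains overlapped, and a two-sided exact permutation test of the means gave p = 0.46, where 0.029 is the smallest p that 4 against 4 libraries allow. RPOA-2 replicate 1 held the highest score, 10.6, and the other RPOA-2 libraries scored -4.55 to 0.71. GRWD-1 replicate 1 scored 4.22 and the other GRWD-1 libraries -4.18 to -2.52. Without RPOA-2 replicate 1 the exact permutation p was 0.37, and without GRWD-1 replicate 2 it was 0.71. The 2 factors of unwanted variation were then removed from the values, with the strain difference kept. The scores on the first component (51.2% of the variance) became -2.4995 ± 2.77 in RPOA-2 libraries and 2.4995 ± 2.87 in GRWD-1 libraries (SD, n = 4 each). Because that removal used the strain labels, and the permutations did not repeat it, the exact permutation p of 0.029 cannot test the strains. The second component without that removal (20.2%) did not separate the strains (exact permutation p = 0.17). Pearson's r of log2 CPM across peaks was 0.94 to 0.97 between libraries of 1 strain (median 0.96) and 0.94 to 0.98 between libraries of different strains (median 0.96). CPM is not scaled by peak length, so r also reflects the unequal lengths of the peaks. Every pair of replicates differed by more than counting noise, with 1.87 to 5.39 times the chi-square that sampling alone gives, so no library was a copy of another.

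**Figure D3:**
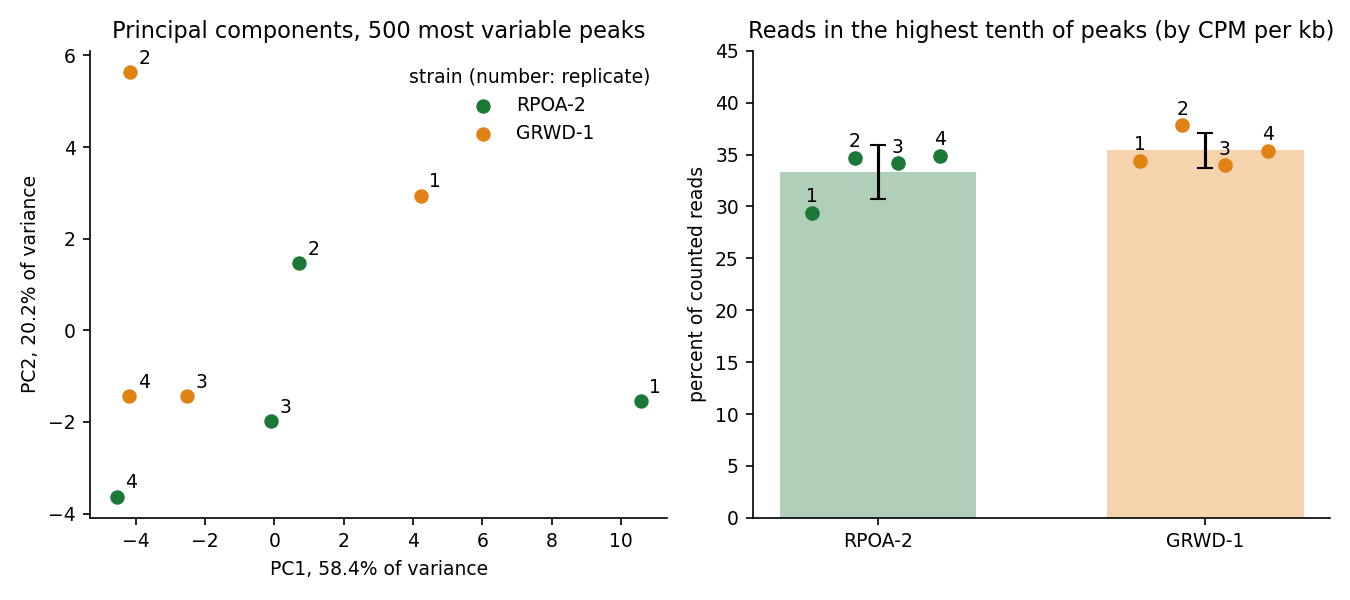
The first 2 principal components of the 8 undepleted libraries (left, number = replicate) and the percent of counted reads in the 10% of peaks with the highest CPM per kb (right, bars are means with SD of 4 libraries). RPOA-2 replicate 1 lies apart on both, at a PC1 score of 10.6 and at 29.4% of reads.

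The shares of reads were compared by chromosome and by region class, without pairing. Chromosome I took 20.0 ± 0.14% of counted reads in RPOA-2 larvae and 20.1 ± 0.48% in GRWD-1 larvae (SD, n = 4 each). The X chromosome took 19.7 ± 0.37% in RPOA-2 larvae and 20.1 ± 0.32% in GRWD-1 larvae. Chromosomes II, III, IV and V took 15.2, 14.0, 14.5 and 16.54% in RPOA-2 larvae and 15.0, 13.9, 14.4 and 16.45% in GRWD-1 larvae. None of the 6 shares passed the test (exact permutation tests, adjusted p = 0.45 to 0.63). Over the 5 region classes, exonic peaks took 29.2 ± 1.48% of reads in RPOA-2 larvae and 27.8 ± 1.32% in GRWD-1 larvae, promoter peaks took 26.6 ± 0.49% in RPOA-2 larvae and 27.1 ± 0.52% in GRWD-1 larvae, and peaks over small RNA or rRNA genes took 10.4 ± 1.05% in RPOA-2 larvae and 10.9 ± 0.56% in GRWD-1 larvae. None of these shares passed an exact permutation test (adjusted p = 0.43 to 0.54). Over both families the unadjusted exact permutation p ran from 0.17 to 0.63. With 4 against 4 libraries none can be below 0.029, so a single separated share could not have passed after adjustment. These tests thus do not show that the shares were equal. Without RPOA-2 replicate 1 the difference of RPOA-2 minus GRWD-1 was 0.69 percentage points in place of 1.42 for exonic peaks, -0.015 in place of -0.52 for small RNA or rRNA genes and -0.22 in place of -0.35 on the X chromosome. Without GRWD-1 replicate 2 it was 0.78 for exonic peaks, -0.40 for small RNA or rRNA genes and -0.20 on the X chromosome.

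Since 1 of 29131 peaks was called between the strains in the unpaired fit, the L1 landscape was described from the mean of all 8 libraries. The 29131 peaks had a median length of 381 bp, from 150 to 15954 bp, and covered 15.2 Mb, 15.2% of the genome. Their levels were close to each other. The median was 52.6 CPM per kb, 90% of peaks lay between 38.3 and 85.3 CPM per kb, a 2.23-fold range, and 722 peaks (2.48%) were above 2 times the median. Only 41 peaks were above 4 times the median.

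Each peak was placed in the first class that applied: promoter (midpoint within 500 bp of the 5′ end of a protein-coding transcript), small RNA or rRNA gene (any overlap), exon, intron or intergenic (by the midpoint). Exonic peaks were the most numerous class, with 9649 (33.1%, in 23.8% of the genome), followed by 8147 promoter peaks (28.0%, in 23.1% of the genome), 5657 intronic (19.4%, in 27.1%) and 5109 intergenic peaks (17.5%, in 25.98%). The 569 peaks over rRNA, tRNA, snoRNA, snRNA or miRNA genes made up 1.95% of peaks. Bases of such genes outside promoters are 0.11% of the genome. A peak joins this class by any overlap, so the ratio of 17.8 is raised by construction. It cannot be set against the other classes, which go by the midpoint. Exonic peaks were 1.39 times and promoter peaks 1.21 times as frequent as their share of the genome. Intronic and intergenic peaks were 0.72 and 0.68 times as frequent. Of the promoter peaks 48.5% had their midpoint upstream of the nearest 5′ end. Peaks within 100 bp of a 5′ end had a median level of 55.2 CPM per kb, against 52.2 CPM per kb beyond 2000 bp.

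By median level, only the class of small RNA or rRNA genes stood apart. This class is joined by any overlap, and its peaks had a median length of 806 bp, against 338 to 402 bp in the other classes. Its level is thus not compared on equal terms. Peaks over small RNA or rRNA genes had a median of 81.6 CPM per kb, against 54.4 for intergenic, 54.1 for promoter, 51.9 for intronic and 50.9 for exonic peaks. Among the 10% of peaks with the highest level, 37.1% were promoter peaks, 26.7% intergenic and 11.7% over small RNA or rRNA genes, and 11.9% were exonic. In the 10% of peaks just below the median, 38.1% were exonic and 0.55% lay over small RNA or rRNA genes. Promoter peaks also made up 29.3% of the 10% of peaks with the lowest level, against 28.0% of all peaks.

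**Figure D4:**
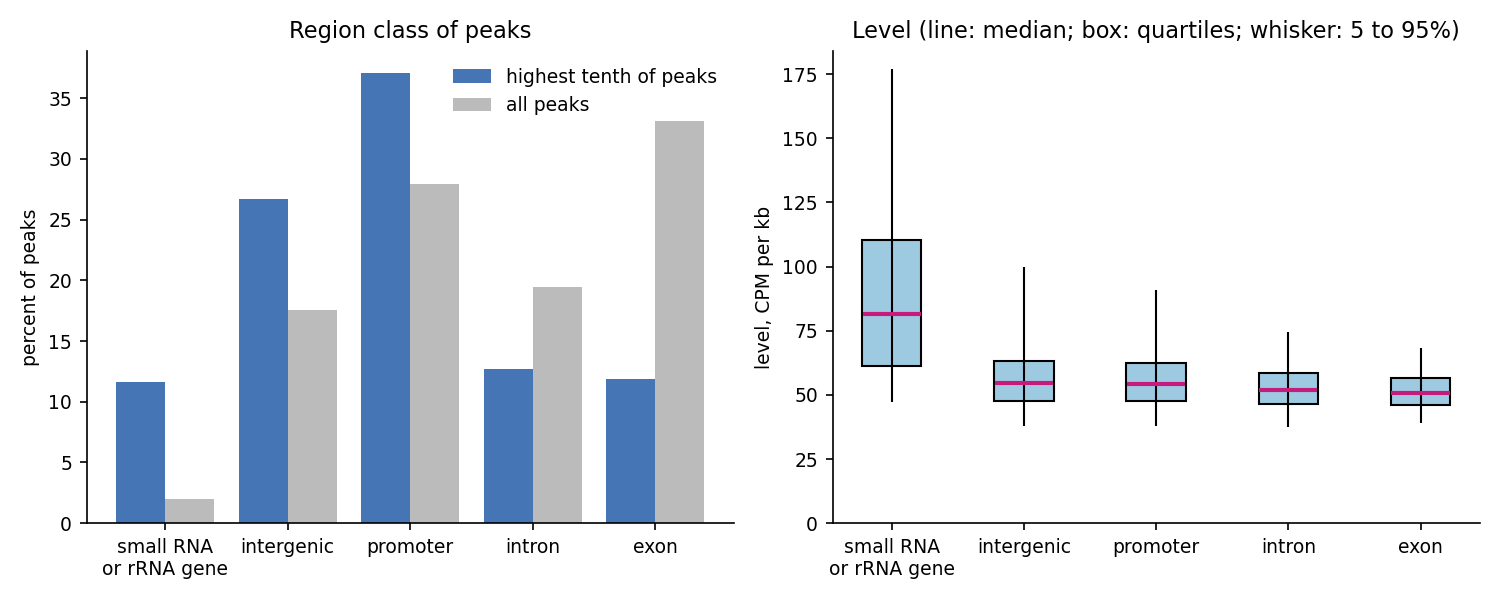
Percent of peaks (vertical axis) in each region class (horizontal axis) among the 10% with the highest CPM per kb and among all 29131 peaks (left), and the level of each class in CPM per kb (right, line = median, box = quartiles, whisker = 5th to 95th percentile). Small RNA or rRNA gene peaks, which join by any overlap, have a median of 81.6 CPM per kb, against 50.9 to 54.4 in the other classes, which go by the midpoint.

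Along the chromosomes, the X chromosome had the most peaks per Mb, 332, with the lowest share of promoter peaks, 24.9%. Chromosome IV had the fewest, 247 per Mb, and chromosome V, rich in gene families such as chemoreceptors, had 259 per Mb, the highest share of promoter peaks (31.4%) and the lowest median level (51.3 CPM per kb, against 52.1 to 53.2 on the other chromosomes). The middle 50% of chromosome III held 335 peaks per Mb, against 269 in its outer parts. The middle was also denser on IV (273 against 222) and V (281 against 237) and slightly on II (311 against 299), whereas the outer parts were denser on I (303 in the middle, 319 outside) and X (320 in the middle, 344 outside).

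Of the 10 peaks with the highest CPM per kb, 6 lie over non-coding RNA genes, 2 of them the ribosomal RNA peaks. A cluster of 7 non-coding RNA genes with mir-52 on chromosome IV (IV:14032272-14035195) had 832, 1227, 1232 and 1226 CPM in RPOA-2 larvae, against 1260, 1384, 1132 and 1255 CPM in GRWD-1 larvae, which is 408 CPM per kb. RPOA-2 replicate 1 was the low library, and the log2 fold change was 0.07 (95% interval -0.08 to 0.21), 0.13 without that library and 0.00 without GRWD-1 replicate 2. These are from fits with 2 factors, and the mean CPM was lower in RPOA-2 larvae. The loci of sls-2.2 and sls-2.3 (II:5543210-5544621, 302 CPM per kb) and of sls-2.4 (I:4171525-4172779, 292 CPM per kb) carry genes of the SL2 RNA, the leader that is trans-spliced onto the downstream genes of worm operons. A tRNA gene on chromosome V (WBGene00014567, V:19125668-19126286) had 285 CPM per kb. The only protein-coding promoter among the 10 was that of Y18D10A.4 (I:12814988-12816448, 330 CPM per kb), with 348, 491, 501 and 484 CPM in RPOA-2 larvae, against 519, 530, 488 and 494 CPM in GRWD-1 larvae. Its log2 fold change was 0.03 in the fit with 2 factors, although its mean CPM was lower in RPOA-2 larvae. The fold change was 0.08 without RPOA-2 replicate 1 and -0.04 without GRWD-1 replicate 2. The remaining 3 of the 10 lie between genes, at I:3171680-3171876 and III:2100769-2101374 and, with piRNA genes only, at IV:15570611-15571312 (293 to 310 CPM per kb). None of the 10 was called between the strains in this fit.

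By total CPM, the largest domains after the ribosomal RNA genes were long rather than intense. A 12417-bp domain over pro-1 and mnk-1 on chromosome II had 1502 CPM, a 10383-bp domain around W06H8.6 on V 1398 CPM, a 15954-bp domain over T28B11.1 and its many small non-coding genes on V 1294 CPM, and a 10661-bp domain at mdl-1 on X 1255 CPM. Per kb the levels were 121 CPM at pro-1, 135 CPM at W06H8.6, 81.1 CPM at T28B11.1 and 118 CPM at mdl-1. pro-1 encodes a conserved ribosome biogenesis protein and mdl-1 a MAD-like transcription factor. Their log2 fold changes between the strains were -0.05 to 0.03.

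Replicate spread was largest at short peaks with few reads. After the empty kvs-3 peak, the highest coefficients of variation in both strains were 44 to 55% at 4 peaks of 150 to 170 bp with 8 to 67 reads per library. One of them, upstream of rbpl-1 (I:9013927-9014080), had 2.92, 2.87, 2.66 and 6.09 CPM in RPOA-2 larvae, against 1.93, 1.77, 4.73 and 5.52 CPM in GRWD-1 larvae. The others lie in bcl-11 and pix-1 and upstream of far-6.

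A promoter peak was assigned to a gene where a peak midpoint fell within 500 bp of one of its 5′ ends. Of 19985 protein-coding genes 6814 had one (34.1%), with a median level of 55.8 CPM per kb. In an operon the downstream genes share the promoter of the first, and a gene without a peak is not thereby closed. Among non-coding genes, 483 of 634 tRNA genes (76.2%) had one, at a median of 83.2 CPM per kb, then 207 of 346 snoRNA genes (59.8%, 66.24 CPM per kb), 45.6% of 261 miRNA genes (61.7 CPM per kb) and 55 of 129 snRNA genes (42.6%, 66.25 CPM per kb). Pseudogenes had one in 337 of 2128 cases (15.8%, 51.3 CPM per kb). tRNA genes, transcribed by RNA polymerase III from promoters within the gene, thus had the highest median of these gene types, among which rRNA genes were not counted.

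Gene lists were then read for level and for strain difference. In none of the 23 lists was a member called between the strains in the unpaired fit, against 0.00343% of all peaks. The largest count at an unadjusted p below 0.05 was 4 of 118 peaks, in the nuclear hormone receptors, against 4.06% of all peaks. The largest share was 2 of 4 peaks, in the glial markers. Short lists exceed 4.06% with 1 such peak, as body wall muscle (1 of 9) and neurons (1 of 6) did. Pharyngeal, intestinal, epidermal and germ line markers had 0. The list medians of the log2 fold change lay between -0.09 (pharynx) and 0.10 (glia), and the median of all peaks was 0.01.

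Of 21 genes of RNA polymerase I and the nucleolus 8 had a promoter peak (median 66.2 CPM per kb). rpoa-1, the largest RNA polymerase I subunit, had 75.5 ± 3.80 CPM per kb in RPOA-2 larvae and 85.0 ± 7.38 in GRWD-1 larvae (SD, n = 4 each, log2 fold change -0.06, 95% interval -0.24 to 0.11). nucl-1, the nucleolin homologue, had 71.5 ± 2.90 in RPOA-2 larvae and 69.3 ± 5.70 in GRWD-1 larvae. ncl-1, a TRIM protein that limits nucleolar size, had 69.6 CPM per kb over both strains. rpoa-2 itself was the lowest member.

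Ribosomal protein genes had a promoter peak in 68 of 80 genes (85.0%, against 34.1% of all protein-coding genes), with a median of 61.8 CPM per kb. rps-6 was the highest, with 146 ± 32.6 CPM per kb in RPOA-2 larvae and 158 ± 21.1 in GRWD-1 larvae, in a peak that lies over usp-3 and 2 other genes and beside rps-6. It was followed by rpl-29 (129) and rps-23 (106.5), and rps-2 was the lowest (22.1 CPM per kb). Their log2 fold changes between strains ran from -0.45 to 0.36 with a median of 0.00, and 2 of 67 peaks had an unadjusted p below 0.05. Of 12 translation factors 7 had a peak (median 57.0 CPM per kb), led by eif-3.B (75.2) and ife-2 (69.7), a cap-binding protein.

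Lists of developmental timing genes, like most of the lists read, had medians above that of all protein-coding genes with a promoter peak (55.8 CPM per kb). Of 13 regulators of molting and of oscillating genes 6 had one, with a list median of 79.4 CPM per kb. myrf-1, a membrane-bound transcription factor needed for molting, stood out with 205 ± 32.7 CPM per kb in RPOA-2 larvae and 221 ± 14.8 in GRWD-1 larvae, and lin-42, the period homologue that paces the molts, had 116 ± 8.10 in RPOA-2 larvae and 108 ± 4.23 in GRWD-1 larvae (log2 fold change 0.16, 95% interval 0.01 to 0.31, adjusted p = 1.00 by edgeR). blmp-1 had 81.6 CPM per kb and grh-1 was the lowest, with 51.7. Of 11 heterochronic genes, which set the identity of each larval stage, 7 had a peak (median 72.5 CPM per kb). The 7 include microRNA genes, and all miRNA genes with a promoter peak had a median of 61.7 CPM per kb. lin-28, an RNA-binding protein of early stages, had 121.7 ± 18.4 in RPOA-2 larvae and 148 ± 19.8 in GRWD-1 larvae (log2 fold change -0.06, 95% interval -0.24 to 0.11). The microRNA genes lin-4, whose product represses lin-14 and lin-28 after the L1 stage, and mir-241 had 121 and 107 CPM per kb, and mir-84 had the lowest level of the list, 56.4.

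Histone genes, which lie in clusters with shared promoters, had a median of 84.7 CPM per kb for 23 of 72 genes in 13 peaks, with his-5 and his-6 at 123.1 and his-61 at 111 CPM per kb. his-71, an H3.3 gene, was the lowest at 54.7, with 62.5 ± 9.86 in RPOA-2 larvae and 46.9 ± 6.84 in GRWD-1 larvae (log2 fold change 0.44, 95% interval 0.10 to 0.78, adjusted p = 1.00 by edgeR). Of 14 cell cycle genes 9 had a peak (median 56.5), led by cye-1, the cyclin E gene (81.8 CPM per kb, in a peak that overlaps pqn-21), and cdk-4 (77.1). Of 22 heat shock and stress genes 13 had one (median 62.6), led by the endoplasmic reticulum chaperone hsp-3 (97.05). The heat-inducible pair hsp-16.2 and hsp-16.41 shared a peak at 78.0 CPM per kb that varied widely, with 73.5 ± 22.4 in RPOA-2 larvae and 82.45 ± 22.85 in GRWD-1 larvae, and gst-4, the oxidative stress reporter gene, was the lowest at 41.65, in a peak that overlaps gst-2.

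The large gene families differed in how many members had a promoter peak. Of 1310 chemoreceptor genes 109 had one (8.32%), with a median of 49.4 CPM per kb, against 34.1% and 55.8 CPM per kb over all protein-coding genes. srh-2 was the highest at 96.1 CPM per kb. Of 240 C-type lectin genes 57 had a peak (23.8%, median 52.3), led by clec-80 (91.5). Nuclear hormone receptors, a large family of transcription factors in worms, had one in 44.2% of 269 genes (median 56.8), led by nhr-1 (174), nhr-40 (127) and nhr-41 (112 CPM per kb). Cuticle collagens had one in 63 of 171 genes (36.8%, median 61.7), from 29.8 at col-170 to 80.4 at col-47. Of 6 Hox genes 3 had a promoter peak, lin-39, nob-1 and php-3, at 43.4 to 56.9 CPM per kb.

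Marker genes were used to check the labelled material, whole L1 larvae, with the caution that an accessible promoter is not expression. Body wall muscle markers had a promoter peak in 9 of 10 genes, at a median of 68.1 CPM per kb, led by unc-22 (twitchin) at 91.7 and unc-15 (paramyosin) at 86.55. Epidermal markers had one in 7 of 10 (median 64.1, nhr-23 at 77.2 and the collagen gene sqt-3 at 75.1), intestinal markers in 5 of 10 (median 65.2, the protease gene asp-1 at 70.4), neuronal markers in 6 of 10 (median 58.5, the neuropeptide-processing gene egl-21 at 95.6 and unc-119 at 63.6) and pharyngeal markers in 6 of 8 (median 53.5, pha-4 at 66.1). Glial markers had one in 4 of 6, with lit-1, a kinase gene used in many tissues, at 155 and mir-228 at 115 CPM per kb. None of the 3 coelomocyte markers had a promoter peak. Markers of the germ line, which is a pair of precursor cells in a newly hatched larva, had one in 4 of 10 genes (median 53.9), those of the early embryo in 4 of 8 (median 55.0) and those of the adult in 2 of 8 (col-19 at 68.7 and vit-2 at 49.1). Some markers of every tissue listed except coelomocytes thus had a promoter peak, where 34.1% of all protein-coding genes had one. Genes known for their expression in the early embryo or the adult had such peaks too, so these counts are a weak check of the material. fig-1, a glial marker, had 56.2 ± 2.87 CPM per kb in RPOA-2 larvae and 43.45 ± 9.92 in GRWD-1 larvae (log2 fold change 0.29, 95% interval 0.02 to 0.57), and unc-119 had 67.1 ± 9.38 in RPOA-2 larvae and 60.1 ± 8.39 in GRWD-1 larvae (0.25, 0.01 to 0.49). Both had an adjusted p of 1.00 by edgeR's quasi-likelihood test.

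**Figure D5:**
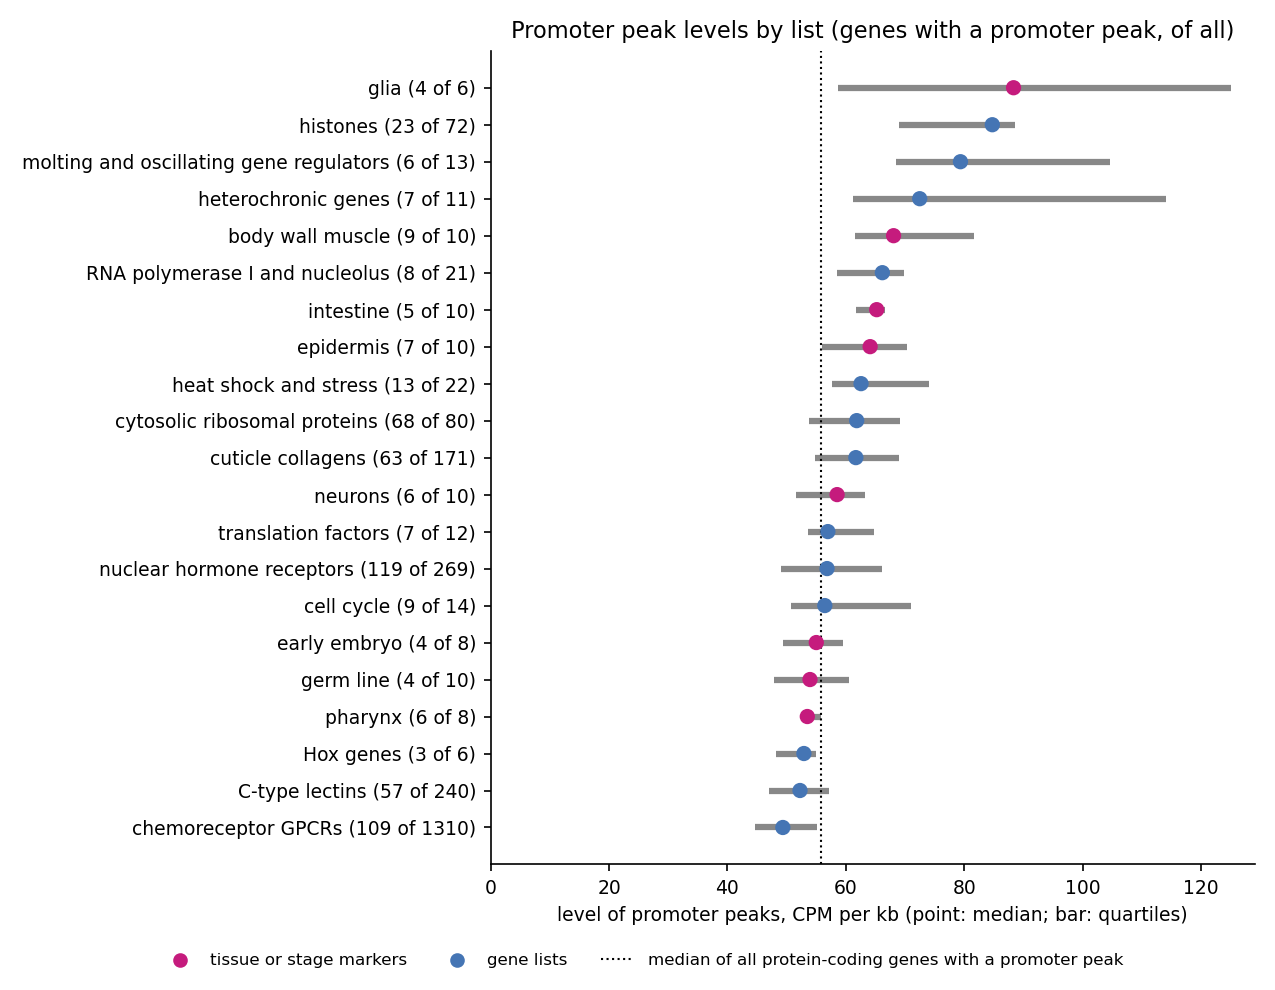
Median level of the promoter peaks of each list in CPM per kb (points, with quartiles as bars) over the 8 undepleted libraries (magenta, tissue or stage markers, and blue, gene lists), for lists with at least 3 genes with a peak, with the number of genes with a peak and of all genes beside the name. Glial markers (88.3) and histones (84.7) are the highest and chemoreceptors (49.4) the lowest, and the dotted line marks 55.8, the median of all protein-coding genes with a promoter peak.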

How the data were processed

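Read counts per peak were deposited by the authors for 16 libraries, and the 8 without TIR1 are described. Per the paper's methods, fastp was used by the authors for trimming and Bowtie2 for alignment to WBcel235, after which duplicates and mitochondrial or low-quality alignments were dropped. MACS2 called peaks library by library, HOMER joined the 16 peak sets into 1, and featureCounts counted reads, not fragments. Merging lets a peak found in few libraries enter the set. Versions of these tools are not given in the sources used here.

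From the counts, edgeR 4.0.16 (R 4.3.3) fitted 4 genotypes over 16 libraries with TMM scaling and 2 factors of unwanted variation, estimated from 13897 control peaks with an adjusted p of at least 0.75 for RPOA-2 TIR1 against RPOA-2. The filter on low counts removed 0 peaks. A call is a quasi-likelihood test with a Benjamini-Hochberg adjusted p below 0.05. The common biological coefficient of variation was 8.14%. Samples were grouped by genotype label. Shares and component scores were compared with two-sided exact permutation tests over 4 against 4 libraries, adjusted within a family of 6 chromosomes or 5 classes. DESeq2 1.42.0 was an alternative, with other scalings, filters, factors, thresholds, class windows, left-out libraries and a replicate block. Principal components used variance-stabilized counts.

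Named peaks were those called between the undepleted strains, the 10 highest per kb, the 5 highest in CPM, the 5 most variable between replicates, the peaks at rpoa-2, grwd-1, eef-1A.1 and rRNA genes, and the 3 highest and the lowest of each list. Peaks named outside these criteria are marked as such. The peaks, lists and comparisons were chosen with earlier results of these data known. Each gene was matched to the WBcel235 annotation by symbol, and a gene's promoter peak is the highest one with its midpoint within 500 bp of a 5′ end. All count tables at hand were used.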

Additional observations from a re-analysis of the deposited data

Results flagged for a closer look

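A library far from the other 3 of its strain was found in 13 of the 92 strain and measure pairs examined. For measures not picked by their values, chance gives about 1 in 20. That rate does not hold here, since some peaks, kvs-3 and rbpl-1 among them, were named for a large replicate spread. In RPOA-2 larvae, replicate 1 was the low library at the cluster of non-coding RNA genes with mir-52 (832 CPM), at Y18D10A.4 (348 CPM), at the SL2 RNA genes sls-2.2 and sls-2.3 (271 CPM) and at the large ribosomal RNA genes (36563 CPM), and it also had the lowest share of reads in the top 10% of peaks (29.4%) and in the top 1% (8.71%). The 6 are not independent, since they describe the same library.

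RPOA-2 replicate 2 was the high library at the second peak over rrn-3.1 (132 CPM), and RPOA-2 replicate 4 at the short peak upstream of rbpl-1 (6.09 CPM, 16 reads).

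In GRWD-1 larvae, replicate 2 was the high library at 3 long domains, around W06H8.6 (1789 CPM), T28B11.1 (1557 CPM) and mdl-1 (1646 CPM). Replicate 3 was the low library at the large ribosomal RNA genes (37607 CPM), and replicate 1 held the only reads at the kvs-3 peak (0.276 CPM, 2 reads).

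At 3 peaks the strain difference of the TIR1 libraries differed from that of the undepleted libraries in edgeR's quasi-likelihood test of the difference itself. It was -0.47 at the large ribosomal RNA genes (adjusted p = 0.00069) and -1.03 over F31C3.16 (adjusted p = 0.028), both on the log2 scale. At the kvs-3 peak the fitted value was -11.05 (adjusted p = 1.7e-06), which depends on the prior count because 3 of the 4 genotypes were at or near 0, and is no measure of size. Hours on auxin differ between the undepleted and the TIR1 libraries. They cannot be told apart from TIR1 or from the depletion of a different protein in each strain.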

How the results depend on the processing

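The main count was 1 peak higher and 0 lower in RPOA-2. DESeq2, other scalings and filters, 0 or 1 factor, other control peaks and a threshold of 0.01 gave the same count. It was 2 higher at a threshold of 0.10 and with 3 factors, and 0 higher with all libraries thinned to the shallowest total and, in an alternative chosen after seeing the data, without both RPOA-2 replicate 1 and GRWD-1 replicate 2. Leaving out 1 library at a time gave 0 to 2 higher and 0 lower, with 2 without GRWD-1 replicate 4. Over 32 alternatives the chromosome V peak was higher in RPOA-2 in all and called in 26, with log2 fold changes of 0.79 to 1.03 and adjusted p of 4.7e-05 to 0.37 (edgeR or DESeq2).

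With a replicate block in place of the factors, 2 peaks were called higher and 12 lower over 16 libraries, and 2 higher and 24 lower over the 8 undepleted ones, of which 14 were called by both, and 3196 and 3174 peaks had an unadjusted p below 0.05. By edgeR, the peak over F31C3.16 was then called (log2 fold change -0.91 and -0.92, adjusted p = 0.00025 and 4.7e-05), as were the chromosome X peak at X:17125593-17125956 (0.83 and 0.81, adjusted p = 0.010 and 0.0067), the promoter peak of rps-5 (-0.75 and -0.76, adjusted p = 0.036 and 0.029) and, over the 8 libraries only, the mec-4 peak (-0.82, adjusted p = 0.038). The study processed 1 replicate of every strain in each of 4 batches, but no source says that the number is the batch. Deviations of same-numbered libraries correlated at 0.01 to 0.28, and 5 of 8 libraries correlated best with their own number, so the numbers were not taken to pair the samples, and whether they do is not settled by these values. In all 4 same-numbered pairs the X share was lower, and the exonic share higher, in RPOA-2. The cause of the added calls was not tested.

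The PC1 difference was 5.00 in size with the 2 factors removed and 2.04 to 5.96 with 1 library left out. The exact permutation p of 0.029 after that removal cannot test the strains, since the removal used their labels. The strain difference of the TIR1 libraries at the chromosome V peak ran from -0.058 to 0.15. Of the log2 fold changes of named peaks under the alternatives, 841 kept their call or moved by less than 1 SE, 101 moved further, 7 became called and 6 lost a call. No share moved beyond its spread. Levels were recomputed only with library totals in place of TMM, and none moved beyond its spread. That is a mild change, since the TMM factors of the undepleted libraries ran from 0.946 to 1.06. Levels were not recomputed with a library left out. Short peaks with few reads limit the precision, and counts of reads carry no molecular identifiers, so p-values cover these libraries only.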
